A study of Mus musculus with 19 samples.

Results

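Collagens are the triple-helical proteins from which most of the extracellular matrix is built, and the genes of their chains were followed here across sorted cells of the mouse prostate. All gene symbols of the form Col, a number, a and a number were taken, which gave 44 collagen genes among the 24343 gene symbols in the deposited tables. They were grouped by collagen class into 11 fibrillar genes, 6 basement membrane genes of type IV, 9 fibril-associated genes, 6 beaded genes of type VI, 1 anchoring fibril gene, 3 network genes, 2 multiplexin genes, 4 transmembrane genes and 2 other genes. RNA had been sequenced from stromal, basal and luminal cells that were separated by flow sorting of dissociated anterior prostates. Lgr5-DTR mice, which were given diphtheria toxin (DT), yielded 4 stromal, 3 basal and 3 luminal libraries, and wild type control mice yielded 3 libraries of each population. Lgr5-DTR-eGFP is an allele that places a diphtheria toxin receptor and a green fluorescent protein at Lgr5, so that toxin kills cells that use this gene. The study asked which transcripts change in each population when the Lgr5-expressing stromal cells are ablated. The wild type C57BL/6 mice were bought from a breeder while the Lgr5-DTR-eGFP mice came from another laboratory, and whether the controls received toxin is not given in the sources used here, so genotype, toxin and source of the mice cannot be told apart. Ages are not given. No label ties the libraries to individual animals, and the p-values therefore reflect library-to-library spread, part or all of which may be technical.

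Fibrillar collagens (types I, III, V and their relatives) assemble into the load-bearing fibres of the stroma, with fibril-associated collagens bound along their surface and type VI collagen forming beaded filaments close to cells. Type IV collagen and the multiplexins are sheet and proteoglycan components of the basement membrane, on which the basal and luminal epithelium of the prostate sits, and type XVII collagen is the transmembrane part of the hemidesmosomes that fasten basal cells to it. Fibroblasts are the usual source of the fibrillar chains, whereas epithelial cells make basement membrane chains of their own.

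The 19 libraries held 5.26 to 9.38 gigabases aligned on transcripts, and in each of them 9209 to 10819 genes had at least 1 FPKM (fragments per unit of transcript length and of mapped fragments, in which levels of different genes can be compared). The targeted gene Lgr5 had 0.916 ± 0.338 FPKM in Lgr5-DTR stromal cells and 44.2 ± 29.1 FPKM in wild type stromal cells (SD, n = 4 and 3), a log2 difference of -4.40 in limma (adjusted p = 0.000318). Markers of the labelled types were present in each population, with summed fibroblast markers of 2736 to 3327 FPKM in Lgr5-DTR stromal libraries against 5196 to 5350 FPKM in wild type ones. Basal libraries also held luminal markers, at 3585 to 4835 FPKM in sum in Lgr5-DTR and 3603 to 4297 FPKM in wild type mice. Among these, Krt8 had 1125 to 1674 FPKM in basal and 1210 to 3814 FPKM in luminal libraries. The tables of 7 libraries marked 424 transcripts, none of a collagen, as having low data, and those of the other 12 marked none. Among the 7 were 1 stromal, 2 basal and 1 luminal library of Lgr5-DTR mice, with 1 basal and 2 luminal libraries of wild type mice.

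Collagen levels were first compared between populations within each genotype. Wild type stromal cells held a summed collagen level of 2167 ± 214 FPKM, wild type basal cells 488 ± 46.9 FPKM and wild type luminal cells 136 ± 18.4 FPKM (SD, n = 3 each). In wild type stromal cells fibrillar chains made up 53.7% of this sum and type VI chains 24.8%. In wild type basal cells the multiplexins made up 48.6% and the transmembrane collagens 24.3%. Wild type luminal cells had no leading class of this size, with 28.0% in fibril-associated, 24.5% in type IV and 24.5% in fibrillar chains. The heat map of the libraries shows all 31 collagens that were tested in at least 1 population.

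**Figure D1:**
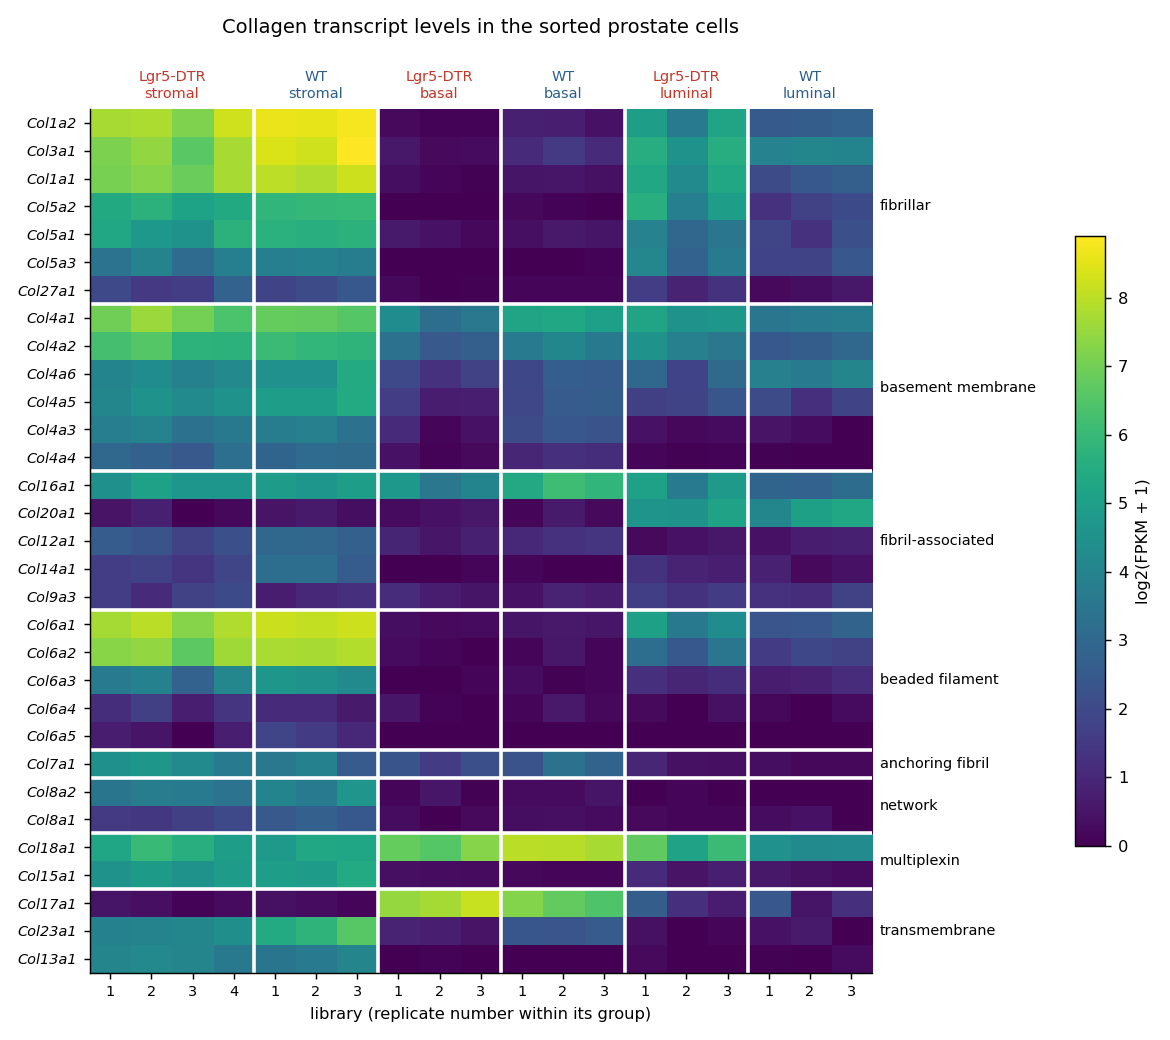
Level of each collagen gene on the log2(FPKM + 1) scale (colour) in each of the 19 libraries (columns, by population and genotype), with genes listed down the side by collagen class. Fibrillar and type VI chains are high in both stromal groups, Col17a1 and Col18a1 in both basal groups and Col20a1 in both luminal groups.

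Most collagens were higher in wild type stromal than in wild type basal cells. Of 30 collagens tested in this comparison 24 were higher and 3 lower, where 29.2% of all genes tested were higher and 27.8% lower. A gene entered this test when 3 of the genotype's libraries reached 1 FPKM, and 7 of the 30 (Col6a5, Col8a1, Col8a2, Col13a1, Col14a1, Col15a1 and Col27a1) did so in wild type stromal libraries alone and were bound to be higher there. Of the other 23, 17 were called higher and 3 lower. The highest collagen of the stroma was Col1a2, the second chain of type I collagen, with 214, 225, 146 and 303 FPKM in Lgr5-DTR stromal libraries and 402, 376 and 436 FPKM in wild type ones. Its log2 difference between wild type stromal and basal cells was 8.01 (SE 0.18, limma adjusted p = 2.41e-11). The 3 that were lower in stromal cells were Col17a1 (log2 difference -6.54), Col18a1 (-2.76) and Col16a1 (-0.94). Col18a1, whose core protein carries the endostatin fragment, was the highest collagen of wild type basal cells at 236 ± 19.5 FPKM, against 34.3 ± 6.33 FPKM in wild type stromal cells (SD, n = 3 each).

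Wild type luminal cells were next set against stromal and basal cells. Between wild type stromal and luminal cells 27 of 30 collagens were higher in stromal cells and 2 were lower, against 28.5% and 39.3% of all genes tested. Without the same 7 stromal collagens, 20 of 23 were called higher and 2 lower. The 2 were Col20a1, a fibril-associated chain, and Col17a1. Col20a1 was the highest collagen of wild type luminal cells, with 23.3, 22.9 and 34.3 FPKM in Lgr5-DTR luminal libraries and 16.1, 32.5 and 39.0 FPKM in wild type ones, and it did not pass 0.737 FPKM in any stromal or basal library. It entered the test through the luminal libraries alone, the group where it is high, so its log2 difference of -4.35 in wild type stromal minus luminal cells (SE 0.29) is given as a description. Without any 1 of the wild type luminal libraries Col20a1 missed the filter and was not tested. The number called lower was then 0 without wild type luminal replicate 1 and 1 without replicate 2 or 3, and it was 1 without wild type stromal replicate 2 or 3. Between wild type basal and luminal cells 10 of 30 were higher in basal cells and 12 lower, against 25.5% and 36.8% of all genes tested. As shares these were 33.3% and 40%, near those of all genes. The 10 included 4 of 6 type IV chains and Col17a1, Col18a1, Col16a1, Col7a1, Col23a1 and Col12a1, and the 12 included 6 of 7 tested fibrillar chains.

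Population differences in the Lgr5-DTR mice were of another make-up for the epithelial cells. In Lgr5-DTR stromal minus basal cells 26 of 30 collagens were higher and 2 lower, against 25.9% and 31.4% of all genes tested. In Lgr5-DTR mice 7 of the 30 (Col4a4, Col6a4, Col8a1, Col8a2, Col12a1, Col13a1 and Col23a1) reached 1 FPKM in stromal libraries alone, and of the other 23, 19 were called higher and 2 lower than in basal cells. In Lgr5-DTR stromal minus luminal cells 22 were higher and 2 lower, against 20.9% and 43.8%, and without those 7 collagens 15 of 23 were higher and 2 lower. Of the fibrillar chains 4 of 7 passed. Col5a2, Col5a3 and Col27a1 did not pass there, with log2 differences of 0.62, 0.06 and 0.70 (limma adjusted p = 0.113, 0.866 and 0.0508). In Lgr5-DTR basal minus luminal cells 2 collagens were higher, Col17a1 and Col7a1, and 17 were lower, against 14.3% and 34.3% of all genes tested. Among the 17 were 7 of 7 fibrillar and 4 of 6 type IV chains. Col20a1, which again reached 1 FPKM in luminal libraries alone, was not tested without any 1 of them, and 1 collagen was then called lower in Lgr5-DTR stromal than luminal cells without Lgr5-DTR luminal replicate 1 or 3. Comparisons between populations in the same genotype share libraries with each other and are not independent.

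Not every member was measurable. Of the 44 collagens, 31 reached the level for a test in at least 1 population and 7 in all 3 populations. The other 13 (Col2a1, Col6a6, Col9a1, Col9a2, Col10a1, Col11a1, Col11a2, Col19a1, Col22a1, Col24a1, Col25a1, Col26a1 and Col28a1) did not reach 1 FPKM in any library. The highest value among them was 0.638 FPKM, for Col22a1. They include both chains of the other class and the type II, X and XI chains known from cartilage, as well as 2 of the 3 type IX chains.

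Several collagen genes lie side by side in the genome, on mm10 as deposited. Col4a1 (chromosome 8, 11198423 to 11312826, minus strand) and Col4a2 (chromosome 8, 11312829 to 11449287, plus strand) are arranged head to head with 2 bases between their starts, and this pair is known for its shared promoter. Col4a4 and Col4a3 on chromosome 1 lie head to head with 71 bases between them, and Col4a6 and Col4a5 on chromosome X with 1342 bases between them. Col3a1 (chromosome 1, 45311538 to 45349706) and Col5a2 (45374331 to 45503282) lie tail to tail, 24624 bases apart.

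RefSeq promoter windows of 300 bases, from 250 before to 50 after the start on GRCm38.p6, were matched for 35 of the 44 collagens (38 windows). Of these, 6 are printed 5′ to 3′ on each gene's own strand: the shared type IV pair because its chains moved together in basal and luminal cells, Col1a2 and Col3a1 as fibrillar chains of the stroma, Col17a1 as the basal collagen that rose, and Col23a1 as the collagen with the lowest log2 difference in stromal cells. Capitals mark matches to 6 short motifs, searched on both strands. The CCAAT box was searched by the letters of its name. The GC box was searched as GGGCGG, a motif read by Sp1-type factors. For the TATA box, which places the start of transcription, TATAAA was used. AP-1 sites were searched as TGANTCA, where N is any base. For factors of the TEAD family the letters were GGAATG. The SOX site was searched as ACAAAG.
Col4a1, chr8:11312777-11313076, minus strand: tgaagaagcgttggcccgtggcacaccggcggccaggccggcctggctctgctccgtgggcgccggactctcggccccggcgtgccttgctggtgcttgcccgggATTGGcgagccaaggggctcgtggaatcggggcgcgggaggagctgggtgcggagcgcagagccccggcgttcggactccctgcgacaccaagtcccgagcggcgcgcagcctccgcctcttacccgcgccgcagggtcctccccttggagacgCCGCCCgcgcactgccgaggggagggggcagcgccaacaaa
Col4a2, chr8:11312555-11312854, plus strand: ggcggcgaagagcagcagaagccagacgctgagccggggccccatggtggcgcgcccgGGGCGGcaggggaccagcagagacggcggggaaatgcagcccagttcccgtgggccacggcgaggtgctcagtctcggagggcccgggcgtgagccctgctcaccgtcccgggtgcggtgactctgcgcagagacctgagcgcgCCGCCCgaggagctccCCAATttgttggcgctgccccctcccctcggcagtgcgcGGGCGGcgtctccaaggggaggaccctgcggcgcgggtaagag
Col1a2, chr6:4505368-4505667, plus strand: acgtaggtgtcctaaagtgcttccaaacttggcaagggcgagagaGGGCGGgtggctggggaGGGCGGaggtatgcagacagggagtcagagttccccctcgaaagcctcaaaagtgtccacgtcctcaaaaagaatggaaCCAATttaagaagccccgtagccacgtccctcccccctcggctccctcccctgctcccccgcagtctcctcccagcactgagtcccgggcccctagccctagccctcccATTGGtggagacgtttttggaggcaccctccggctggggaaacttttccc
Col3a1, chr1:45311288-45311587, plus strand: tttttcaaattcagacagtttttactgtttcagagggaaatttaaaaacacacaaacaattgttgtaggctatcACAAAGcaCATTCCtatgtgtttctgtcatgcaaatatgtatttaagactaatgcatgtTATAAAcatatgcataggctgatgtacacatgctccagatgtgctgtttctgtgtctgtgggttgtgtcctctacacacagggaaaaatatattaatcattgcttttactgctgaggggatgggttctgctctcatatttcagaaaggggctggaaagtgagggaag
Col17a1, chr19:47691993-47692292, minus strand: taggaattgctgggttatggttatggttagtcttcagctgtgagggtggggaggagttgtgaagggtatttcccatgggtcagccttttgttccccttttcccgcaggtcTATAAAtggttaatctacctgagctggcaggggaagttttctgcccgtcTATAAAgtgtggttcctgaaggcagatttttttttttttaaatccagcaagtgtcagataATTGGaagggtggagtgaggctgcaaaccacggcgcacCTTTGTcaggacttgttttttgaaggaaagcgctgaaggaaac
Col23a1, chr11:51289670-51289969, plus strand: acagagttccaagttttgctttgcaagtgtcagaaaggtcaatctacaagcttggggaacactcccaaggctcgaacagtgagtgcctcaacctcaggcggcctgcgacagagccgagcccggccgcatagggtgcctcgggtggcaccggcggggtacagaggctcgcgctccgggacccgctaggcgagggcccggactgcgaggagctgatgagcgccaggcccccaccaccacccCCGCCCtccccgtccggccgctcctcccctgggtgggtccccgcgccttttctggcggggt
The printed matches did not overlap each other. The windows of Col4a1 and Col4a2 share 78 bases (chr8:11312777-11312854), and 1 GC box (chr8:11312812-11312817) lies in both. The Col4a2 window follows a RefSeq start that lies 24 bases upstream of the start in the deposited tables, and the Col1a2 window one that lies 79 bases upstream, while the other 4 starts were identical. Col1a2 held 2 CCAAT and 2 GC boxes, whereas Col3a1 held neither and had 1 TATA box, 1 TEAD site and 1 SOX site in its window. Col17a1 held 2 TATA boxes, 1 CCAAT box and 1 SOX site, and Col23a1 held 1 GC box. Relative to the RefSeq start, the TATAAA letters began at -117 in Col3a1 and at -140 and -91 in Col17a1. Whether these letters place the start of either gene was not tested. A GC box was found in 23 of the 38 collagen windows (60.5%) and in 35.7% of 32851 windows of all genes. A CCAAT box was found in 34.2% of collagen windows against 37.4% of all, a TATA box in 13.2% against 13.6%, an AP-1 site in 2.63% against 7.81%, a TEAD site in 13.2% against 14.7% and a SOX site in 13.2% against 18.7%. These matches are descriptions of the letters and were not set against any measure of binding.

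Within stromal cells, 3 collagens fell in Lgr5-DTR mice and none rose. The 3 were Col23a1, Col14a1 and Col3a1, a transmembrane, a fibril-associated and a fibrillar chain. Of 29 collagens tested, 3 (all lower) passed an adjusted p of 0.05 in limma, where 1.17% of 10689 genes passed in either direction, 1.1% passed as lower and 0.0655% as higher. The median log2 difference (Lgr5-DTR minus wild type, on the log2(FPKM + 1) scale) was -0.50 over the 29 collagens and -0.09 over all genes tested. In 14 of the 29 every Lgr5-DTR library lay below every wild type library, which held for 9.39% of all genes. The 14 include Col6a5, which had no call and passed the filter through wild type libraries alone.

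Col23a1 (chromosome 11, 51289920 to 51583925), a transmembrane collagen whose outer part can be shed, had 14.1, 14.8, 15.8 and 20.7 FPKM in Lgr5-DTR stromal libraries and 42.8, 54.6 and 95.8 FPKM in wild type ones. The groups did not overlap, and the wild type library highest for it was also the highest for Lgr5. Its mean was 3.94-fold lower in Lgr5-DTR cells, with a log2 difference of -1.85 (SE 0.28, limma adjusted p = 0.00859).

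Col14a1 (chromosome 15, 55307750 to 55520803), a fibril-associated chain, had 2.06, 2.37, 1.54 and 2.61 FPKM in Lgr5-DTR stromal libraries and 8.20, 8.23 and 4.96 FPKM in wild type ones. All 4 Lgr5-DTR libraries were below the lowest wild type library. The log2 difference was -1.35 (SE 0.25, limma adjusted p = 0.0254).

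Col3a1, the single chain of type III collagen, had 139.8, 174, 96.8 and 213 FPKM in Lgr5-DTR stromal libraries and 334, 309 and 477 FPKM in wild type ones. Again no library of one group reached the other. The log2 difference of -1.29 (SE 0.27) stood just inside the threshold (limma adjusted p = 0.0498).

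The type I chains moved the same way without passing. Col1a1 (chromosome 11, 94936270 to 94951856) had 135, 156, 117 and 211 FPKM in Lgr5-DTR stromal libraries and 259, 228 and 298 FPKM in wild type ones. Both type I chains were without overlap between the groups, but their log2 differences of -0.78 for Col1a1 and -0.91 for Col1a2 had limma adjusted p = 0.160 and 0.112. Type VI chains, led by Col6a1 with 209, 254, 156 and 229 FPKM in Lgr5-DTR stromal libraries and 291, 274 and 295 FPKM in wild type ones, had no call among 5 tested. Among the network chains of type VIII, Col8a2 had 10.9 ± 1.47 FPKM in Lgr5-DTR stromal cells and 17.2 ± 6.16 FPKM in wild type ones, with no call (limma adjusted p = 0.421).

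The basement membrane chains of stromal cells had no call among 6 tested. Col4a1 had 125, 186, 131 and 81.7 FPKM in Lgr5-DTR stromal libraries and 111, 108 and 93.1 FPKM in wild type ones, with overlap and a log2 difference of 0.28 (limma adjusted p = 0.792). Col7a1, the chain of the anchoring fibrils beneath epithelia, had 21.0, 25.3, 17.7 and 11.7 FPKM in Lgr5-DTR stromal libraries and 10.8, 14.1 and 4.82 FPKM in wild type ones, a log2 difference of 0.93 that did not pass (limma adjusted p = 0.310). As a share of all collagen FPKM, type IV chains made up 18.1% ± 4.31 in Lgr5-DTR and 11.4% ± 0.888 in wild type stromal cells, and fibrillar chains 43.3% ± 5.68 and 53.7% ± 1.91 (SD, n = 4 and 3).

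Marker lists of several cell types were also read in the stromal libraries. Of the fibroblast markers 5 of 10 tested markers were lower in Lgr5-DTR stromal cells, and none higher. Smooth muscle markers had no call among 8 tested, with sums of 401 to 506 FPKM in Lgr5-DTR and 293 to 354 FPKM in wild type stromal libraries. Macrophage markers had no call among 6 tested, though 6 of 6 had a log2 difference above 0, and their sums of 15.8 to 25.6 FPKM in Lgr5-DTR and 6.05 to 14.7 FPKM in wild type stromal libraries did not overlap. The part of these markers in the collagen differences was not tested. In bulk samples of this kind fewer cells of a type and less RNA per cell cannot be told apart. The calls of Col3a1 and Col14a1 rested on single libraries. In all, 1 collagen was called lower without Lgr5-DTR replicate 1 or 3 or without wild type replicate 1 or 2, 2 when either Lgr5-DTR replicate 2 or wild type replicate 3 was dropped, and 6 when Lgr5-DTR replicate 4 was dropped. Col23a1 was called in each of these, Col3a1 in 1 of the 7 and Col14a1 in 3 of the 7. Among stromal libraries without the low-data status 3 of 3 called collagens kept their direction. This was bound to hold, because their genotypes did not overlap, and is no test of the status. No wild type stromal library carried the low-data status.

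**Figure D2:**
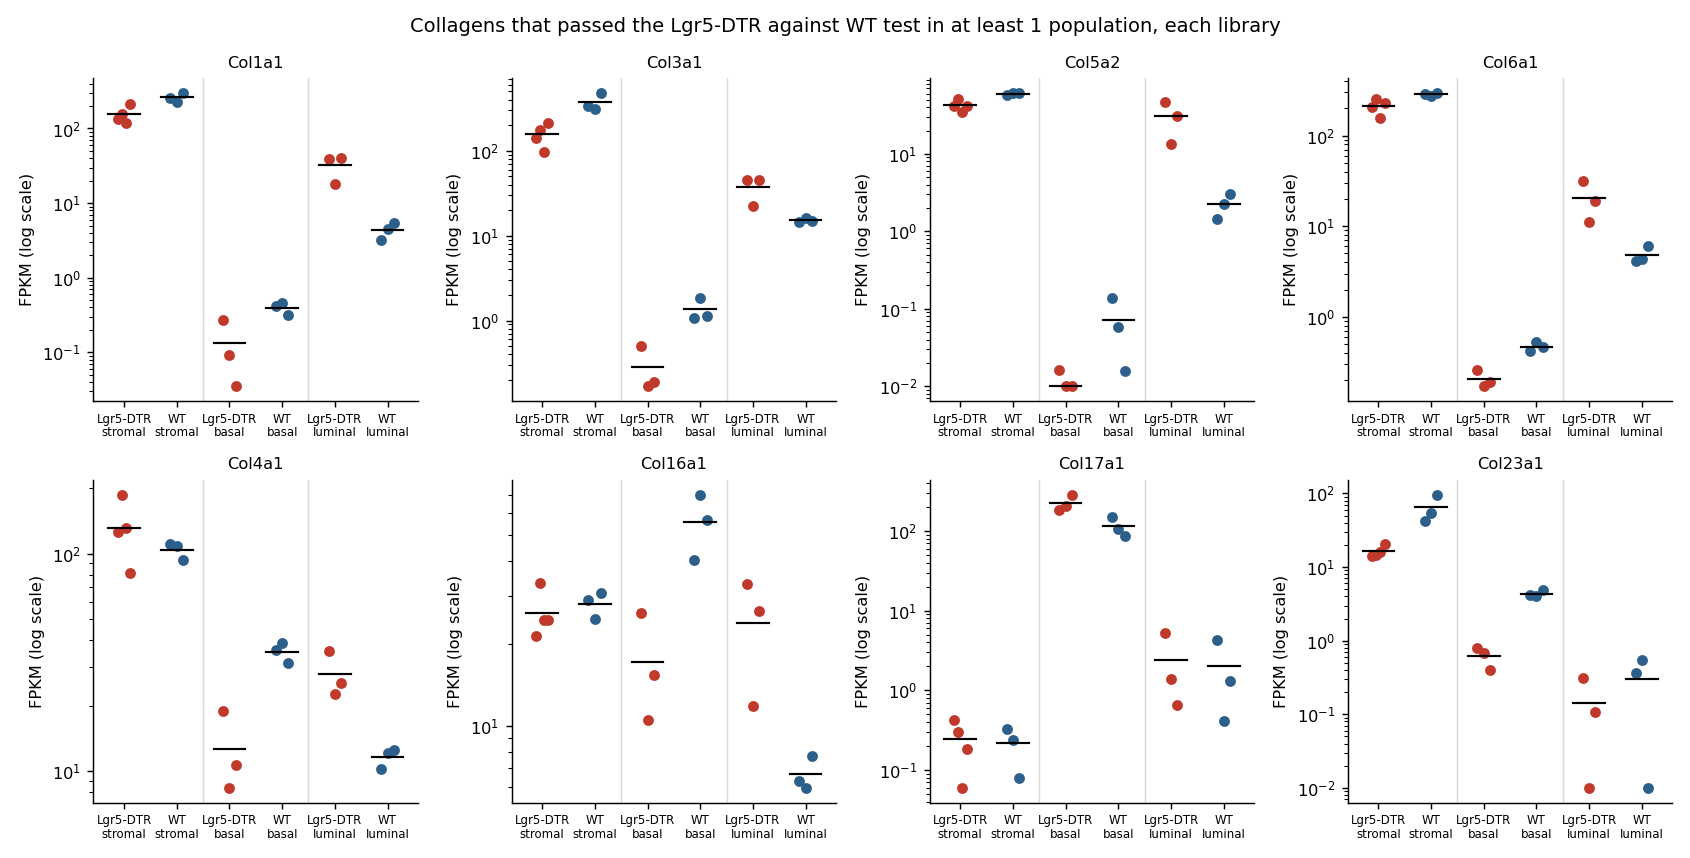
FPKM of 8 collagens in each library (points, log axis, values under 0.01 FPKM drawn at 0.01), with Lgr5-DTR left of wild type within stromal, basal and luminal cells and bars at the group means. The means of the 3 fibrillar chains and of Col6a1 lie lower in Lgr5-DTR than wild type stromal cells, with a call for Col3a1 alone, and higher in Lgr5-DTR than wild type luminal cells, while Col17a1 lies higher and Col23a1 lower in Lgr5-DTR basal cells.

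Within basal cells, 8 collagens fell and 1 rose in Lgr5-DTR mice. The basement membrane chains Col4a1, Col4a2, Col4a3 and Col4a5, the multiplexin Col18a1, the fibril-associated Col16a1, and Col23a1 and Col3a1 were lower, and the hemidesmosome collagen Col17a1 was higher. Thus 9 of 12 tested collagens passed in limma, where 11% of 9755 genes passed in either direction, 4.46% as lower and 6.5% as higher. The median log2 difference was -0.97 over the 12 collagens and 0.02 over all genes tested. Libraries of the genotypes did not overlap for 9 collagens that were lower in Lgr5-DTR basal cells and 1 that was higher, against 13.7% and 17.5% of all genes. Col23a1, Col3a1 and Col12a1 entered the test only through wild type libraries at or above 1 FPKM. They are part of the median and of the 9 lower collagens without overlap, which for them was bound to hold. Of the other 9 tested collagens 6 were called lower and 1 higher. Among the 6, Col4a3 and Col4a5 reached 1 FPKM in 3 wild type libraries but in only 1 Lgr5-DTR library.

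Of the type IV chains 4 of 5 tested were called, and of the head-to-head pairs only Col4a1 and Col4a2 had both members called. Col4a4, the partner of Col4a3, missed the filter and could not be called. It had 0.361, 0.0571 and 0.158 FPKM in Lgr5-DTR basal libraries and 0.958, 1.32 and 1.23 FPKM in wild type ones, without overlap. Col4a1, a chain of the common basement membrane network, had 18.9, 8.37 and 10.7 FPKM in Lgr5-DTR basal libraries and 36.0, 38.7 and 31.3 FPKM in wild type ones. Its head-to-head partner Col4a2 had 9.11, 4.63 and 5.55 FPKM in Lgr5-DTR basal libraries and 11.9, 15.9 and 11.0 FPKM in wild type ones. For both genes the groups were separate, and Lgr5-DTR replicate 2 was the lowest library. The log2 differences were -1.48 for Col4a1 (SE 0.26, limma adjusted p = 0.0103) and -0.94 for Col4a2 (SE 0.24, limma adjusted p = 0.0415).

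Col4a3, a chain of the restricted type IV network known best from the kidney, had 1.11, 0.117 and 0.360 FPKM in Lgr5-DTR basal libraries and 3.16, 4.32 and 3.82 FPKM in wild type ones. Col4a5 had 2.05, 0.606 and 0.673 FPKM in Lgr5-DTR basal libraries and 2.70, 4.88 and 5.19 FPKM in wild type ones. All Lgr5-DTR values were below all wild type values for both. The log2 differences were -1.69 for Col4a3 (SE 0.26, limma adjusted p = 0.00595) and -1.35 for Col4a5 (SE 0.31, limma adjusted p = 0.0252). Col4a6, the neighbour of Col4a5, was the type IV chain tested in basal cells that did not pass, with a log2 difference of -0.75 (limma adjusted p = 0.104).

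Col18a1 (chromosome 10, 77052179 to 77166530) had 109, 93.9 and 155 FPKM in Lgr5-DTR basal libraries and 252, 243 and 214 FPKM in wild type ones. The groups were apart by a wide margin, and the mean was 1.98-fold lower in Lgr5-DTR cells, with a log2 difference of -1.01 (SE 0.20, limma adjusted p = 0.0150). Col16a1 (chromosome 4, 130047840 to 130099277), a fibril-associated collagen, had 25.8, 10.5 and 15.3 FPKM in Lgr5-DTR basal libraries and 40.6, 70.1 and 56.8 FPKM in wild type ones. Its mean was 3.25-fold lower in Lgr5-DTR cells (log2 difference -1.70, SE 0.32, limma adjusted p = 0.0133).

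Col17a1 (chromosome 19, 47646341 to 47692042) had 181, 209 and 285 FPKM in Lgr5-DTR basal libraries and 152, 107 and 86.5 FPKM in wild type ones. It was the one collagen called higher in basal cells, with each Lgr5-DTR library above each wild type library. The log2 difference was 0.98 (SE 0.24, limma adjusted p = 0.0359), and the call was lost without Lgr5-DTR replicate 2 or 3 and without wild type replicate 2 or 3. Since Col17a1 rose and Col18a1 fell, transmembrane chains made up 57.4% ± 6.36 of collagen FPKM in Lgr5-DTR basal cells and 24.3% ± 5.14 in wild type ones, and multiplexins 30.1% ± 2.02 and 48.6% ± 1.07 (SD, n = 3 each).

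Col23a1 had 0.798, 0.671 and 0.395 FPKM in Lgr5-DTR basal libraries and 4.17, 4.03 and 4.83 FPKM in wild type ones. Because it passed the filter through wild type libraries alone, its log2 difference of -1.73 (SE 0.19, limma adjusted p = 0.00166) is given without weight. Col3a1 passed in the same way, with 0.501, 0.168 and 0.186 FPKM in Lgr5-DTR basal libraries and 1.08, 1.85 and 1.14 FPKM in wild type ones (log2 difference -0.87, limma adjusted p = 0.0384). Col7a1 had 3.95, 1.99 and 3.49 FPKM in Lgr5-DTR basal libraries and 3.90, 9.27 and 6.20 FPKM in wild type ones, with overlap and no call (limma adjusted p = 0.119).

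Markers of other cell types also differed between the genotypes in basal cells, in both directions. The summed fibroblast markers were 314 to 642 FPKM in Lgr5-DTR and 739.5 to 894 FPKM in wild type basal libraries, with both tested markers (Dcn and Fbln2) lower. Nearly all of this sum was Dcn, with 313 to 880 FPKM over the basal libraries. The next highest fibroblast marker, Fbln2, had 0.912 to 12.4 FPKM. Smooth muscle markers had 257 to 331 FPKM in Lgr5-DTR and 430.2 to 488 FPKM in wild type basal libraries, with 2 of 4 tested lower. Most of that sum was Smtn, with 246 to 452 FPKM over the basal libraries, and the next highest, Tagln, had 5.47 to 34.4 FPKM. Of the macrophage markers 3 of 5 tested were higher, at 14.6 to 20.1 FPKM in sum in Lgr5-DTR against 7.02 to 11.3 FPKM in wild type basal libraries. Endothelial markers had no call among 5 tested, though 5 of 5 had a log2 difference above 0, and their sums of 13.6 to 30.6 FPKM in Lgr5-DTR and 6.03 to 10.9 FPKM in wild type basal libraries did not overlap. Basal markers themselves summed to 7400 to 8878 FPKM in Lgr5-DTR and 10162 to 13115 FPKM in wild type basal libraries, with 3 of 7 lower. The part of these markers in the collagen differences was not tested. Collagens called lower numbered 10 without Lgr5-DTR replicate 1, 4 without Lgr5-DTR replicate 2, 5 without Lgr5-DTR replicate 3, 5 without wild type replicate 1, 1 without wild type replicate 2 and 2 without wild type replicate 3. Without any 1 wild type library Col23a1, Col3a1 and Col12a1 missed the filter and were not tested. In the sets of libraries with and without the low-data status, 9 of 9 called collagens kept their direction. With no overlap between the genotypes for these 9 this was bound to hold, and it is no test of the status.

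Within luminal cells, 12 collagens rose in Lgr5-DTR mice and none fell. They were the 6 tested fibrillar chains Col1a1, Col1a2, Col3a1, Col5a1, Col5a2 and Col5a3, the type IV pair Col4a1 and Col4a2, the type VI chains Col6a1 and Col6a2, Col16a1 and Col18a1. Of 18 collagens tested 12 passed in limma, where 3.14% of 10524 genes passed in either direction, 2.62% as higher and 0.513% as lower. The median log2 difference was 1.31 over the 18 collagens and 0.10 over all genes tested. Libraries of the genotypes did not overlap for 12 collagens that were higher in Lgr5-DTR luminal cells and for 1 that was lower, against 17.4% and 9.63% of all genes. Each of the 12 called also reached 1 FPKM in every wild type luminal library.

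The change in the fibrillar chains was of several fold. Col5a2 (chromosome 1, 45374331 to 45503282), a chain of the type V collagen that starts and limits fibrils, had 46.9, 13.2 and 30.8 FPKM in Lgr5-DTR luminal libraries and 1.42, 2.27 and 3.05 FPKM in wild type ones. The lowest Lgr5-DTR library, replicate 2, was still above the highest wild type library. Its mean was 13.5-fold higher in Lgr5-DTR cells, with a log2 difference of 3.13 (SE 0.42, limma adjusted p = 0.00998).

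Col1a1 had 38.7, 18.1 and 39.8 FPKM in Lgr5-DTR luminal libraries and 3.23, 4.51 and 5.45 FPKM in wild type ones, a log2 difference of 2.56 (SE 0.31, limma adjusted p = 0.00681). Col1a2 had 30.3, 11.5 and 35.3 FPKM in Lgr5-DTR luminal libraries and 4.73, 5.23 and 5.93 FPKM in wild type ones, a log2 difference of 1.95 (SE 0.37, limma adjusted p = 0.0291). For both chains the genotypes were separate, and Lgr5-DTR replicate 2 was the lowest of its group. Their means were 7.33-fold and 4.85-fold higher in Lgr5-DTR luminal cells.

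Col3a1 had 45.5, 22.0 and 45.8 FPKM in Lgr5-DTR luminal libraries and 14.6, 16.0 and 15.0 FPKM in wild type ones, where it was the highest fibrillar chain. Among the 12 it had the adjusted p nearest to the threshold (log2 difference 1.19, SE 0.27, limma adjusted p = 0.0483). The other type V chains were Col5a1 at 14.5, 6.64 and 10.3 FPKM in Lgr5-DTR luminal libraries and 2.60, 1.43 and 3.49 FPKM in wild type ones, and Col5a3 at 16.5, 5.98 and 11.4 FPKM in Lgr5-DTR luminal libraries and 2.46, 2.52 and 4.29 FPKM in wild type ones. Neither overlapped between the genotypes, and their log2 differences were 1.70 for Col5a1 (SE 0.31, limma adjusted p = 0.0250) and 1.52 for Col5a3 (SE 0.34, limma adjusted p = 0.0471).

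The basement membrane pair rose in luminal cells, opposite to its direction in basal cells. Col4a1 had 35.7, 22.6 and 25.5 FPKM in Lgr5-DTR luminal libraries and 10.2, 12.1 and 12.5 FPKM in wild type ones (log2 difference 1.18, SE 0.20, limma adjusted p = 0.0207). Col4a2 had 22.3, 13.8 and 10.5 FPKM in Lgr5-DTR luminal libraries and 4.41, 5.19 and 6.85 FPKM in wild type ones (log2 difference 1.31, SE 0.28, limma adjusted p = 0.0390). Both were free of overlap. Col4a6 had 7.13, 2.47 and 7.43 FPKM in Lgr5-DTR luminal libraries and 13.6, 11.3 and 15.4 FPKM in wild type ones, without overlap but also without a call (log2 difference -1.21, SE 0.33, limma adjusted p = 0.0827). The ratio of Col4a6 to Col4a1 FPKM, formed within each library, was 0.200 ± 0.0912 in Lgr5-DTR luminal cells and 1.17 ± 0.210 in wild type ones (SD, n = 3 each).

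Col18a1 had 105, 34.0 and 65.3 FPKM in Lgr5-DTR luminal libraries and 21.6, 17.6 and 18.8 FPKM in wild type ones (log2 difference 1.63, SE 0.35, limma adjusted p = 0.0476). Col16a1 had 33.2, 11.8 and 26.3 FPKM in Lgr5-DTR luminal libraries and 6.31, 5.93 and 7.77 FPKM in wild type ones (log2 difference 1.58, SE 0.33, limma adjusted p = 0.0416). Every Lgr5-DTR library was above every wild type library for both. Type VI collagen was represented by Col6a1, with 32.0, 11.0 and 18.9 FPKM in Lgr5-DTR luminal libraries and 4.15, 4.36 and 6.09 FPKM in wild type ones (log2 difference 1.78, SE 0.34, limma adjusted p = 0.0289). Its partner Col6a2 had 8.25, 4.51 and 10.3 FPKM in Lgr5-DTR luminal libraries and 1.89, 2.85 and 2.41 FPKM in wild type ones (log2 difference 1.31, SE 0.29, limma adjusted p = 0.0438). Both type VI chains were likewise separate, while Col6a3, the third chain of this collagen, was not called (log2 difference 0.22, limma adjusted p = 0.587). Col17a1 had 5.17, 1.37 and 0.646 FPKM in Lgr5-DTR luminal libraries and 4.28, 0.409 and 1.32 FPKM in wild type ones, with full overlap (log2 difference 0.16, limma adjusted p = 0.890). Col20a1, the leading luminal collagen of wild type mice, also overlapped (log2 difference -0.05, limma adjusted p = 0.931).

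Summed over class, fibrillar chains held 149.7 ± 62.2 FPKM in Lgr5-DTR luminal cells and 33.2 ± 4.15 FPKM in wild type ones (SD, n = 3 each), which was 41.2% and 24.5% of collagen FPKM. All collagens together held 358 ± 136 FPKM in Lgr5-DTR luminal cells and 136 ± 18.4 FPKM in wild type ones. The Lgr5-DTR luminal sum of fibrillar chains was still below the 625 ± 171 FPKM of Lgr5-DTR stromal cells (n = 4).

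**Figure D3:**
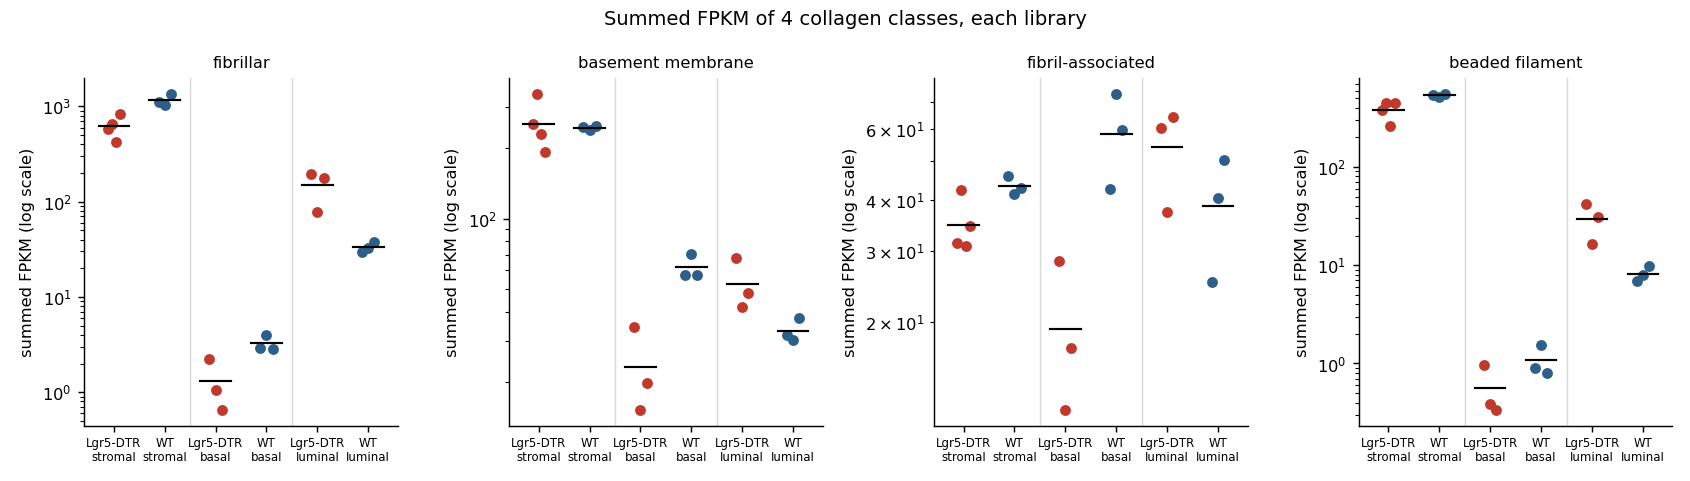
Summed FPKM of 4 collagen classes in each library (points, log axis), with Lgr5-DTR left of wild type in stromal, basal and luminal cells and bars at the group means. Fibrillar sums are 625 and 1167 FPKM on average in Lgr5-DTR and wild type stromal cells, against 149.7 and 33.2 FPKM in luminal cells.

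Markers of other cell types were also read in the luminal libraries, beside the summed fibrillar FPKM of 195, 78.8 and 175 in Lgr5-DTR libraries and 29.5, 32.3 and 37.7 in wild type ones. Schwann cell markers summed to 191, 82.0 and 154 FPKM in Lgr5-DTR luminal libraries and 46.5, 53.2 and 68.9 FPKM in wild type ones, with 2 of 7 tested higher (Sox10 and Gfra3) and Lgr5-DTR replicate 2 again the lowest of its group. Macrophage markers summed to 101, 25.0 and 72.4 FPKM in Lgr5-DTR luminal libraries and 15.8, 15.8 and 21.4 FPKM in wild type ones, with 1 of 7 tested higher (Lyz2). Neither sum overlapped between the genotypes. Pericyte markers, with 1 of 5 tested higher (Kcnj8), summed to 34.2, 16.1 and 24.3 FPKM in Lgr5-DTR luminal libraries and 6.40, 13.6 and 12.5 FPKM in wild type ones. Erythrocyte markers had no call among 4 tested, and 0 of 4 had a log2 difference above 0. They summed to 93.7 to 373 FPKM in Lgr5-DTR and 147 to 892 FPKM in wild type luminal libraries. Smooth muscle, endothelial, lymphocyte and basal markers had no call, and their sums overlapped between the genotypes. The part of these markers in the collagen differences was not tested.

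Neither of the 2 tested fibroblast markers passed. The 10 markers summed to 18.1, 10.9 and 10.2 FPKM in Lgr5-DTR luminal libraries and 37.1, 14.0 and 17.5 FPKM in wild type ones, and 8 of them did not reach 1 FPKM in any luminal library. Dcn had 7.38 to 15.3 FPKM in Lgr5-DTR luminal libraries and 11.9 to 34.6 FPKM in wild type ones. Lgr5-DTR luminal cells had more Col1a1 than Dcn, and Lgr5-DTR stromal cells had 155 FPKM of Col1a1 and 2417 FPKM of Dcn. The part of fibroblasts in the luminal collagen differences was not tested. Luminal markers summed to 14587 to 18397 FPKM in Lgr5-DTR and 24109.6 to 26878 FPKM in wild type luminal libraries, with 1 of 9 tested lower (Pbsn). Pbsn itself led this sum, with 7500 to 22090 FPKM over the luminal libraries. Of the 9 tested, 2 had a log2 difference above 0 without a call. These were Krt8 (3805, 3814 and 1472 FPKM in Lgr5-DTR, 2518, 1210 and 1281 FPKM in wild type libraries) and Krt18 (4378, 4451 and 2491 FPKM against 3374, 2290 and 2032 FPKM).

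**Figure D4:**
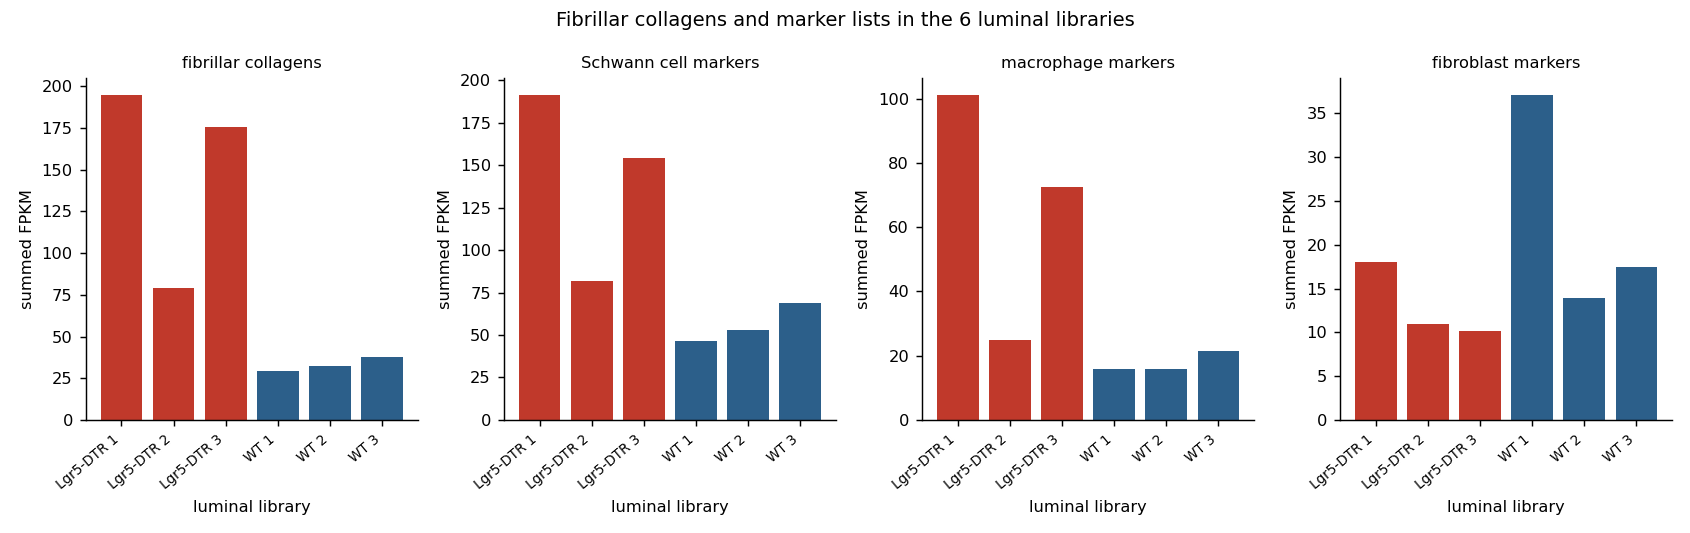
Summed FPKM in each luminal library (bars, from 0) of the fibrillar collagens and of the marker lists of Schwann cells, macrophages and fibroblasts, with the 3 Lgr5-DTR libraries left of the 3 wild type libraries. The fibrillar, Schwann and macrophage sums are higher in the 3 Lgr5-DTR libraries than in the 3 wild type ones and lowest in Lgr5-DTR replicate 2 within that group, while the fibroblast sums overlap.

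Lgr5-DTR luminal replicate 2 was the lowest library of its group for 11 of the 12 called collagens. The number called higher was 2 without Lgr5-DTR replicate 1, 11 without replicate 2, 9 without replicate 3, 5 without wild type replicate 1 and 0 without wild type replicate 2 or 3, where 26 and 0 of all genes passed. In the libraries with and in those without the low-data status, 12 of 12 called collagens kept their direction. As the genotypes did not overlap for these 12, this was bound to hold and is no test of the status.

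**Figure D5:**
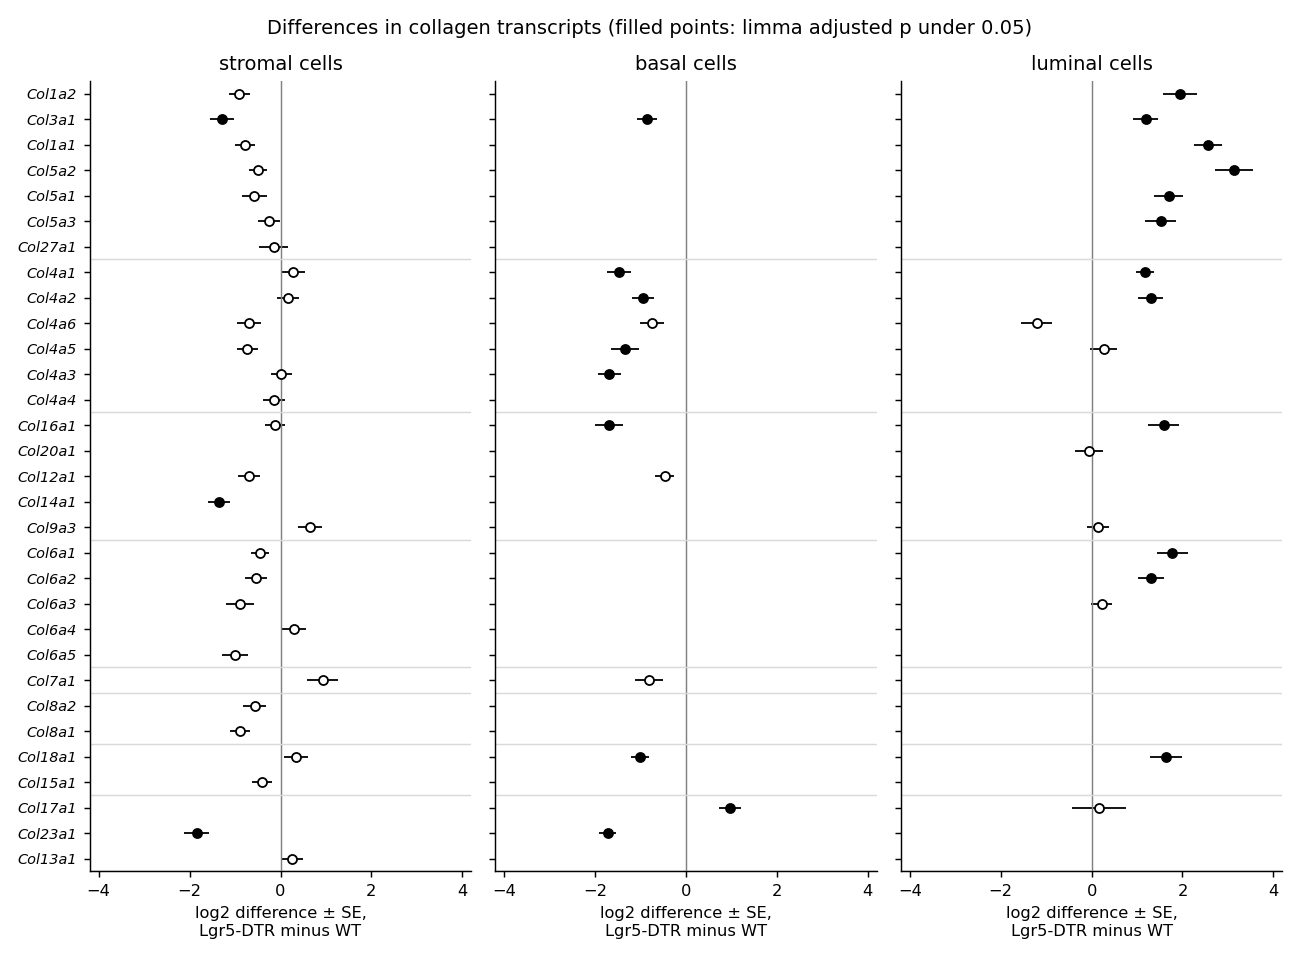
Log2 difference of each tested collagen, Lgr5-DTR minus wild type on the log2(FPKM + 1) scale, in stromal, basal and luminal cells (points with SE bars, filled where limma's adjusted p passed 0.05). Most stromal and basal differences lie below 0, with Col17a1 at 0.98 in basal cells, and 12 luminal differences are filled and above 0.

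The difference in response between populations was itself tested in limma as an interaction. Stromal and luminal cells differed in their change for 9 of 16 collagens tested in both, where 2.51% of 9255 genes did so. These were 6 fibrillar chains, the type VI chains Col6a1 and Col6a2, and Col16a1, and in each the stromal change was the lower one. For Col1a1 the stromal change minus the luminal change was -3.34 (SE 0.40, limma adjusted p = 0.000508), and for Col5a2 it was -3.64 (SE 0.46, limma adjusted p = 0.000701). Basal and luminal cells differed for 5 of 8 (background 4.26% of 9098 genes): Col4a1, Col4a2, Col16a1, Col18a1 and Col3a1, with Col4a1 at -2.66 (SE 0.35, limma adjusted p = 0.00266) and Col18a1 at -2.64 (SE 0.44, limma adjusted p = 0.00721). Col3a1 met the basal filter through wild type libraries alone, where it is high, so its difference is given without weight. Stromal and basal cells differed for 3 of 11 (background 2.98% of 8980 genes), namely Col4a1, Col4a3 and Col16a1, with the basal change the lower one. In basal cells Col4a3 reached 1 FPKM in 3 wild type libraries but in only 1 Lgr5-DTR library. Col3a1, Col12a1 and Col23a1, which met the basal filter through wild type libraries alone, were among the 11 and had no call. Col23a1 had changes whose difference between stromal and basal cells did not pass (interaction -0.12, SE 0.35, limma adjusted p = 0.938). The interactions share libraries with each other and with the comparisons above.

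Chain ratios formed within each library gave the make-up of the trimers' transcripts. The ratio of Col4a1 to Col4a2 FPKM was 1.92 ± 0.409 in Lgr5-DTR stromal cells and 1.75 ± 0.0796 in wild type ones, 1.94 ± 0.135 in Lgr5-DTR basal cells and 2.76 ± 0.304 in wild type ones, and 1.89 ± 0.463 in Lgr5-DTR luminal cells and 2.16 ± 0.285 in wild type ones (SD). The ratio of Col1a1 to Col1a2 was 1.33 ± 0.227 in Lgr5-DTR luminal cells and 0.821 ± 0.123 in wild type ones (SD, n = 3 each), and the means were 0.705 in Lgr5-DTR and 0.645 in wild type stromal cells. Protein trimers were not measured.

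Of 41 genes that modify, export, cleave, cross-link or bind collagens, 34 were tested in stromal cells, 20 in basal cells and 22 in luminal cells. Stromal calls made up 2.94% of those tested, beside 1.17% of all genes. The basal share was 15.0%, beside 11%, and the luminal share 4.55%, beside 3.14%. In stromal cells 1 was lower and none higher. It was Pcolce2, an enhancer of procollagen cleavage, with 4.32, 2.58, 3.25 and 2.77 FPKM in Lgr5-DTR libraries and 20.7, 17.0 and 12.4 FPKM in wild type ones (log2 difference -2.05, limma adjusted p = 0.00243). In basal cells 1 of 20 was higher and 2 were lower. The collagen receptor Ddr1 had 50.3, 54.3 and 52.1 FPKM in Lgr5-DTR basal libraries and 28.1, 31.6 and 29.8 FPKM in wild type ones (log2 difference 0.79, limma adjusted p = 0.00824), and the hydroxylases P3h2 and Plod2 had log2 differences of -1.18 and -0.76 (limma adjusted p = 0.00780 and 0.0346). In luminal cells 1 of 22 was higher and none lower: Bmp1, the protease that removes the C-terminal propeptide of fibrillar procollagens, had 20.8 ± 11.7 FPKM in Lgr5-DTR luminal cells and 2.82 ± 0.199 FPKM in wild type ones (log2 difference 2.34, limma adjusted p = 0.0207, SD over n = 3 each).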

How the data were processed

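RNA from flow-sorted stromal, basal and luminal cells was reverse transcribed with the SMART-Seq v4 kit for low input and tagged with Nextera XT, a preparation that does not mark strand, per the labels' protocols. The authors deposited FPKM for each RefSeq transcript, and the submitters' processing notes name TopHat2, Cufflinks and mm10, while versions are not given. Beside FPKM, the deposited tables list a read coverage, from which depth was computed, and a status, per the file headers. FPKM of the 34535 transcripts were summed per symbol, a value of exactly 0 is called listed at 0, and no counts were available, so precision comes from the libraries. Genes with at least 3 libraries at 1 FPKM or more were fitted on log2(FPKM + 1) with limma 3.58.1 (trend and robust empirical Bayes, R 4.3.3, statmod 1.5.0). Genotype was fitted over each population's libraries and populations over each genotype's libraries. Each interaction was fitted over the libraries of both its populations in both genotypes, with the filter met in each population. Genes were called at a Benjamini-Hochberg adjusted p of 0.05 over all genes tested. The log2(FPKM + 1) scale understates changes of low genes, and 7 genes of failed or capped status, none a collagen, were left out. Python 3.11.15, pandas 2.3.3, numpy 2.4.6 and matplotlib 3.10.9 served for tables and plots. The fits were also run on simulated independent libraries, with genes at 1 FPKM or more in every library. That run did not cover collagens under this level and is no check on their calls. The collagens, gene lists, tests and motifs were chosen with earlier results of these data known. Values in every library were given for called collagens, the 3 highest collagens of each wild type population and the highest of each class. Genes that make or bind collagen were named where they passed, up to 4 per list, and markers were given as lists. Alternatives were another pseudocount, no filter, quantile normalization, median-ratio scaling, ordinary empirical Bayes, the leading transcript alone, each library left out, a replicate block, 1 fit over 19 libraries and the low-data status as a covariate.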

Additional observations from a re-analysis of the deposited data

Results flagged for a closer look

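The change with genotype differed between populations for 17 pairs of a collagen and 2 populations, each tested in limma as an interaction over all genes tested in both. In stromal minus luminal cells the differences were -3.64 for Col5a2 (adjusted p = 0.000701), -3.34 for Col1a1 (adjusted p = 0.000508), -2.85 for Col1a2 (adjusted p = 0.00364), -2.47 for Col3a1 (adjusted p = 0.00522), -2.27 for Col5a1 (adjusted p = 0.0128), -2.23 for Col6a1 (adjusted p = 0.00732), -1.85 for Col6a2 (adjusted p = 0.0172), -1.78 for Col5a3 (adjusted p = 0.0397) and -1.71 for Col16a1 (adjusted p = 0.0345). For each of these 9 the genes were called higher in Lgr5-DTR luminal cells, and Col3a1 was also called lower in Lgr5-DTR stromal cells.

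In basal minus luminal cells limma's interaction gave -3.28 for Col16a1 (adjusted p = 0.00582), -2.66 for Col4a1 (adjusted p = 0.00266), -2.64 for Col18a1 (adjusted p = 0.00721), -2.24 for Col4a2 (adjusted p = 0.00894) and -2.06 for Col3a1 (adjusted p = 0.00894). All 5 were called lower in Lgr5-DTR basal cells and higher in Lgr5-DTR luminal cells. Col3a1 met the basal filter through wild type libraries alone, and its value is given without weight. In stromal minus basal cells it gave 1.76 for Col4a1 (adjusted p = 0.0242), 1.71 for Col4a3 (adjusted p = 0.0151) and 1.57 for Col16a1 (adjusted p = 0.0404), genes called lower in Lgr5-DTR basal cells and not called in stromal cells. Of the Lgr5-DTR basal libraries only 1 reached 1 FPKM for Col4a3.

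No collagen had 1 library far from the other 3 in the Lgr5-DTR stromal group, the one group of more than 3 libraries, among 29 collagens examined.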

How the results depend on the processing

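No collagen called by genotype changed sign under any alternative run. Quantile normalization moved the median of all genes by 0.12 in stromal and -0.15 in luminal cells (log2), and no called collagen changed sign relative to it. The log2 difference of Col23a1 in stromal cells kept its call in all alternatives but the one without a filter (adjusted p 7.07e-05 to 0.0618). Depth limits the chains under 1 FPKM, which were not tested.

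Without a filter on level, limma called 0 collagens lower in stromal cells, 0 higher and 4 lower in basal cells, 0 higher in luminal cells, 1 lower in wild type stromal than luminal cells and 12 in the basal minus luminal interaction, and of all genes 36, 492 and 4 in stromal, basal and luminal cells. With quantile normalization it called 1 lower in stromal and 4 higher in luminal cells, 5 higher in Lgr5-DTR basal than luminal cells and 5 in the stromal minus luminal interaction, and of all genes 77 in stromal cells, 217 in luminal cells and 81 in that interaction. Median-ratio scaling gave 1 lower in stromal and 7 higher in luminal cells, and of all genes 80 in stromal cells and 112 in the stromal minus luminal interaction. The leading transcript alone gave 0 higher in basal cells. One fit over 19 libraries gave 6 lower in stromal cells, 0 higher in basal cells and 1 lower in luminal cells, with 366 of all genes in stromal and 871 in luminal cells. With the low-data status as a covariate there were 1 lower in stromal and 0 higher in basal cells, with 49 of all genes in stromal and 750 in luminal cells. For the changes of calls, the cause was not tested.

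Leaving out 1 library at a time gave 1 to 6 collagens lower in stromal cells (31 to 232 of all genes), 0 to 1 higher and 1 to 10 lower in basal cells (290 to 2231 of all genes), and 0 to 11 higher and 0 to 1 lower in luminal cells (0 to 876 of all genes). Collagens lower numbered 0 to 2 in wild type stromal minus luminal cells and 1 to 2 in Lgr5-DTR stromal minus luminal cells, where Col20a1 was no longer tested without a luminal library.

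Replicate numbers in the descriptions did not pair the genotypes throughout. Same-numbered deviations correlated at 0.45, 0.52 and -0.04 in stromal, -0.56, -0.29 and -0.44 in basal, and 0.41, -0.13 and 0.30 in luminal cells. With a replicate block there were 10 collagens lower and 1 higher in stromal cells (1041 of all genes), 0 higher and 1 lower in basal cells (213 of all genes), and 12 higher and 1 lower in luminal cells (755 of all genes). The sample titles carry another number, which recurs across populations of a genotype. Deviations of libraries with the same title number correlated at -0.06 for wild type basal and luminal number 5. Every other such pair was above 0, up to 0.44. The main comparisons between populations left this number out. As a block it had a consensus correlation of 0.178 in wild type and 0.239 in Lgr5-DTR mice, and 4 collagens were then higher in Lgr5-DTR basal than luminal cells. Over all settings 391 counts stayed within 1.5 times and 80 did not, and of single collagen values 723 kept their side of the threshold, 139 lost it, 20 gained it and 15 that had no call changed sign.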

Other observations

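The level of Col18a1 was summed over transcripts that differed in where they were listed. The transcript NM_009929 had 91.8, 28.9 and 56.6 FPKM in Lgr5-DTR luminal libraries and 19.3, 14.1 and 16.9 FPKM in wild type ones. The transcript NM_001109991 had 13.3, 5.15 and 8.73 FPKM in Lgr5-DTR luminal libraries and 2.31, 3.57 and 1.93 FPKM in wild type ones, and it was listed at 0 in all 6 basal libraries. How the reads were shared out between these overlapping transcripts was an estimate of the upstream software.

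Col27a1, a fibrillar chain known from cartilage, was not tested in luminal cells by genotype, where it had 2.05, 0.819 and 1.49 FPKM in Lgr5-DTR libraries and 0.157, 0.257 and 0.486 FPKM in wild type ones. Col4a4, which shares its start region with Col4a3, was not tested in basal cells, where it had 0.361, 0.0571 and 0.158 FPKM in Lgr5-DTR libraries and 0.958, 1.32 and 1.23 FPKM in wild type ones. In both the genotypes were without overlap.

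Col13a1, a transmembrane collagen, had 11.0 to 17.4 FPKM in Lgr5-DTR stromal libraries and 9.90 to 15.5 FPKM in wild type ones, and Col15a1, the second multiplexin, had 22.4 to 29.1 FPKM in Lgr5-DTR stromal libraries and 29.1 to 42.5 FPKM in wild type ones. The hydroxylase P3h2, which had no call in luminal cells, had 15.2, 6.44 and 14.0 FPKM in Lgr5-DTR luminal libraries and 3.36, 3.82 and 5.24 FPKM in wild type ones, without overlap.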
